A study of Homo sapiens with 6 samples.

Results

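The cytosolic ribosomal protein genes are described here in the human acute myeloid leukaemia line MOLM-13 after 24 h with 50 nM DEG-35, against 24 h with the solvent DMSO. Members were chosen by gene name: RPLP0, RPLP1, RPLP2, RPSA and names made of RPL or RPS and a digit, without RPS6 kinases, RPS19BP1, RPS27L, readthrough genes and numbered pseudogenes. The rule took 72 of the 6831 genes that the authors' deposited table lists, 70 standard ribosomal protein genes (44 of the large subunit and 26 of the small one) and 2 paralogs. DEG-35 is named by the study as a degrader of IKZF2 and of the kinase CK1α. Each group had 3 RNA-seq libraries of MOLM-13 cells labelled as wild type, and the labels do not say whether these were separate cultures, so the tests behind the p-values may rest on technical spread. The labels give no other allele or agent.

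The ribosome is built of a small subunit, which decodes the mRNA, and a large subunit, which joins the amino acids. Its proteins are needed in near-equal numbers, and their mRNAs are known for a run of pyrimidines at the very start of the transcript, the terminal oligopyrimidine (TOP) tract. Through this tract the kinase mTORC1 controls their translation and stability, in part by way of the RNA-binding protein LARP1. Free RPL5 and RPL11 also bind MDM2 and thereby protect p53.

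To show the tract in these genes, 30 bases around the RefSeq start are printed for 10 members and for EEF2, the gene of an elongation factor. They run 5′ to 3′ on the strand with the sequence of the mRNA. The first 15 bases lie upstream of the gene and the last 15 open its first exon. Capitals mark the unbroken run of C and T from the start, where the first base is C and at least 4 further pyrimidines follow, as far as it lies within the 15 bases.
RPS19: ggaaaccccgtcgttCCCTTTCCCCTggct
RPL12: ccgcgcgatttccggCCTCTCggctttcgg
RPL7A: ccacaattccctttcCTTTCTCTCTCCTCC
RPL39: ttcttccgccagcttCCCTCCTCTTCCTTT
RPL26: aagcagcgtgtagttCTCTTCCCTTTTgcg
RPLP2: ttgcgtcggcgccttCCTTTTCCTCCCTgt
RPSA: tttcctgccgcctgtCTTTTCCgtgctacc
RPS4Y1: ggaaaagaacagattCTCTTCCgtcgcaga
RPS4X: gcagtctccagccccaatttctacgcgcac
RPS26: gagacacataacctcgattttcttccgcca
EEF2: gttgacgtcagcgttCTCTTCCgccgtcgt
On GRCh38.p14, RefSeq's build, these windows lie at chr19:41860240-41860269 on the plus strand for RPS19, chr9:127451392-127451421 on the minus strand for RPL12 and chr9:133348203-133348232 on the plus strand for RPL7A. RPL39 lies at chrX:119791616-119791645 on the minus strand, RPL26 at chr17:8383179-8383208 on the minus strand, RPLP2 at chr11:809952-809981 on the plus strand and RPSA at chr3:39406705-39406734 on the plus strand. RPS4Y1 lies at chrY:2841587-2841616 on the plus strand, RPS4X at chrX:72277234-72277263 on the minus strand, RPS26 at chr12:56041903-56041932 on the plus strand and EEF2 at chr19:3985449-3985478 on the minus strand. RPS19, RPL12, RPL7A and RPL39 are shown for their large rises, and RPL26 for its binding to MDM2. RPLP2 and RPSA are shown for their small rises, RPS4Y1 and RPS4X as a pair of copies, and RPS26 as the standard gene that fell. RPL3 and RPL4, not printed, had larger log2 fold changes (0.44 and 0.42) than RPL39 (0.41) and RPL7A (0.40). Neither has such a start, with runs of 4 bases for RPL3 and 0 for RPL4.

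The values are those of the authors' deposited table, which lists the genes with an adjusted p below 0.05, each with its log2 fold change and both p-values. It holds no value per library and no expression level, so the label of the cell line could not be checked against its markers and the depth of the libraries is unknown. Neither its header nor the labels name the numerator, and fold changes are read as DEG-35 over DMSO. Every direction below would turn round in the other order. From its adjusted p-values the number of genes tested was worked out as 15064, of which 45.3% passed, 21.4% as higher and 24.0% as lower with DEG-35. Each ± below is the standard error (SE) implied by a gene's fold change and p-value if that p-value came from a Wald test, and intervals are 95% intervals from it. The libraries are bulk RNA, so a changed amount of these mRNAs per cell and a changed make-up of the culture cannot be told apart.

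Ribosomal protein mRNAs rose with DEG-35, at the median by 24.9%. The authors' deposited table has 70 of the 72 members as higher and 2 as lower, although 27 would be lower if every log2 fold change were shifted down by 0.3. The median log2 fold change of the members was 0.32 (1.25-fold), beside a median of -0.19 over all 6831 listed genes. Being listed is part of how the members were chosen, so the standard genes were also counted from a list of the ribosome's known parts. Of 77 standard genes 70 (90.9%) were listed and 69 (89.6%) were higher, read against 45.3% and 21.4% of all tested genes. Ribosomal protein genes are measured precisely: the implied SEs of the 69 ran from 0.0511 to 0.0982. The table held 3980 other genes within the SE range of the standard members, and 39.0% of those were higher, with a median absolute log2 fold change of 0.36.

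The rises were small and close to each other. Among the 69 standard genes that rose, log2 fold changes ran from 0.16 to 0.49 (1.12-fold to 1.40-fold), with quartiles at 0.28 and 0.36. Their SD from gene to gene was 0.0628, and the median implied SE of a single gene was 0.0616. That SD is narrowed by the choice of genes, since only listed genes that rose enter it. With RPS26 kept, the SD over the 70 listed standard genes was 0.0897. The interval of 66 of the 72 members held the members' median. It lay above it for RPS19, RPL12 and RPS4Y1 and below it for RPSA, RPS26 and RPL39L. Large changes were rare, since 1 member, RPL39L, reached a log2 fold change of 1 in size. Of the listed genes that rose, 74.3% had a larger fold change than the members' median.

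**Figure D1:**
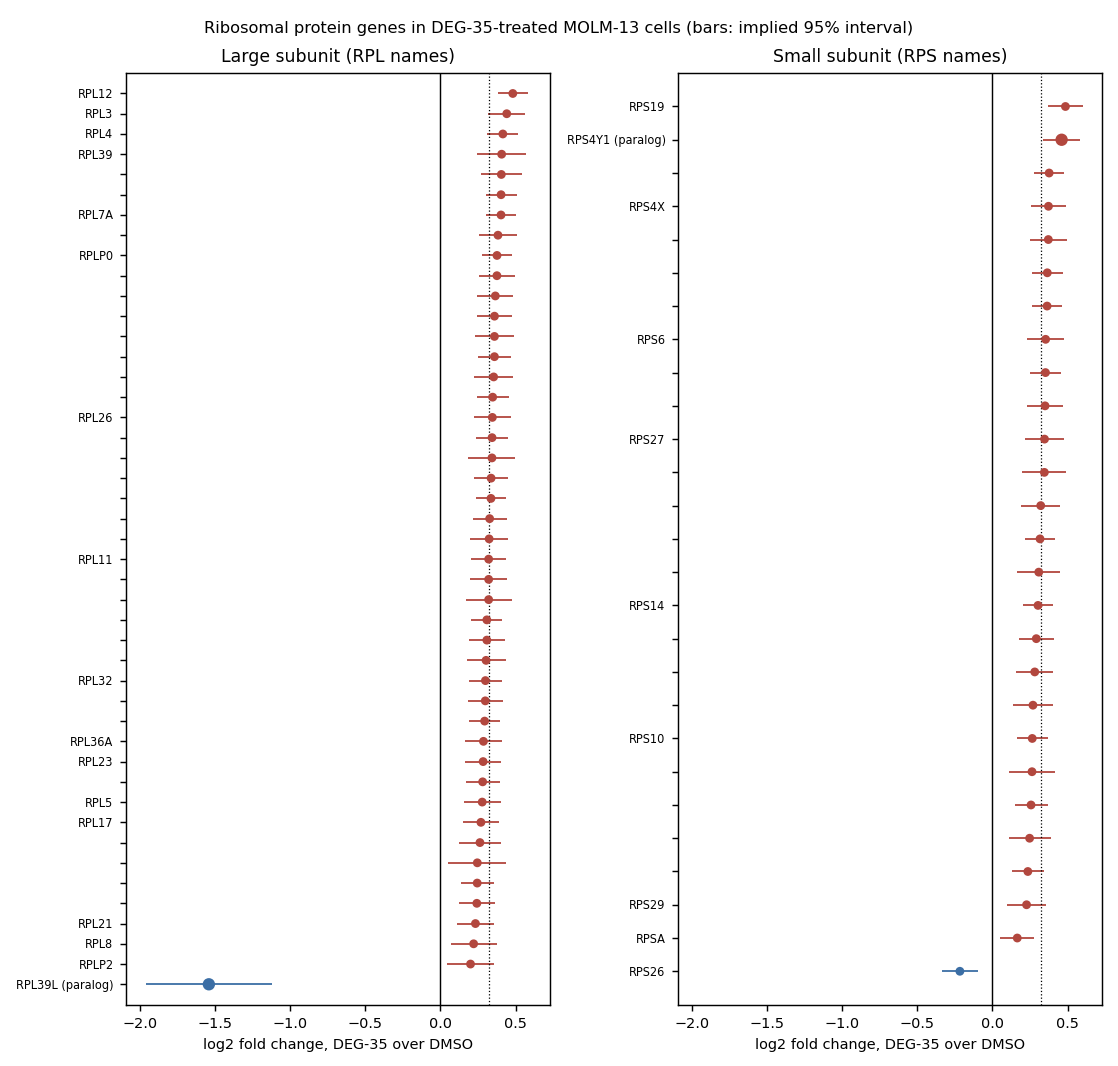
Log2 fold change of each of the 72 members, DEG-35 over DMSO, on the horizontal axis, with genes of the large subunit left and of the small subunit right. Points are the deposited values, with names at the genes named in the text, bars the implied 95% interval, large points the 2 paralogs, and the dotted line the members' median of 0.32. Red points (70) are higher and blue points (2, RPL39L and RPS26) lower, and 27 would be lower after a shift down by 0.3.

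**Figure D2:**
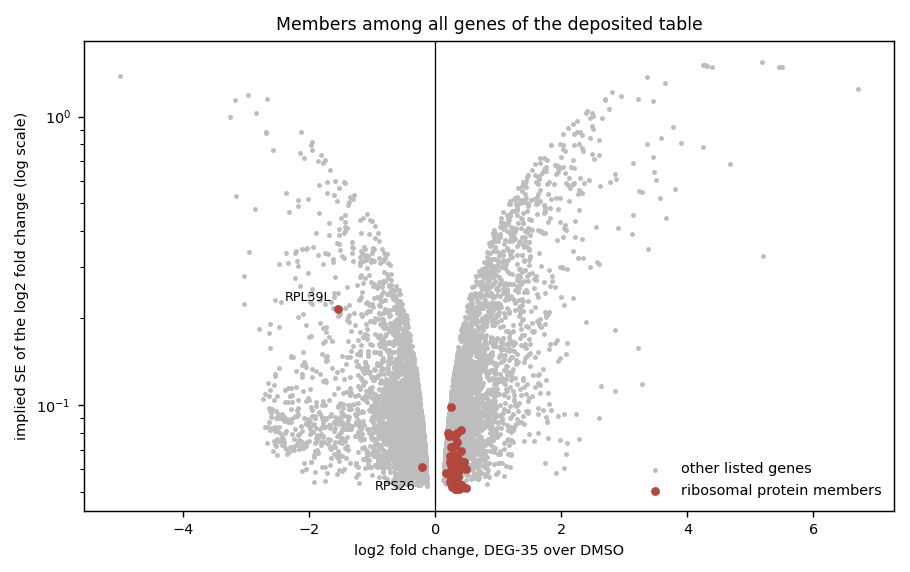
Log2 fold change (horizontal) against the implied SE on a log scale (vertical) for the genes of the deposited table with a p above 0. Members (red) gather between 0.16 and 0.49 at low SE, apart from RPS26 and RPL39L, and other listed genes are grey.

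All 44 listed genes of the large subunit were higher, and 15 of them would be lower after a shift down by 0.3. Their median log2 fold change was 0.33, and their range 0.20 to 0.48. In the authors' deposited table RPL12, which sits at the base of the ribosomal stalk, had the smallest adjusted p of all members, 2.09e-19, and a log2 fold change of 0.48 ± 0.0517. RPL3, a core protein close to the peptidyl transferase centre, stood at 0.44 ± 0.0633, and RPL4, which lines the exit tunnel, at 0.42 ± 0.0528 in the authors' deposited table. RPL39, a small protein of the same tunnel, followed at 0.41 ± 0.0822 in that deposited table. These were the largest rises of the large subunit. At the other end of the authors' deposited table stood RPLP2, an acidic protein of the stalk, at 0.20 ± 0.0803 (adjusted p = 0.0302), and RPL8, at 0.22 ± 0.0779 (adjusted p = 0.0122).

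Genes of proteins that work side by side in the ribosome were also counted as groups. The shares to set beside them are 89.6% higher for the 77 standard genes and 21.4% for all tested genes. Of 4 stalk proteins 3 were listed as higher, of which RPLP2 would be lower after a shift down by 0.3. RPLP0, the anchor of the stalk, stood at 0.38 ± 0.0512 in the authors' deposited table, between RPL12 and RPLP2. RPLP1, the partner of RPLP2, was not listed. Of 8 exit tunnel proteins 7 were listed and higher (87.5%), with a median of 0.36, and 2 of them would be lower after a shift down by 0.3. RPL5 and RPL11, which enter the ribosome together with the 5S rRNA, stood at 0.28 ± 0.0630 and 0.32 ± 0.0602 in the authors' deposited table, and RPL5 would be lower after that shift.

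Of the 26 listed genes of the small subunit 25 were higher and RPS26 was lower, and 11 would be lower after a shift down by 0.3. Their median log2 fold change was 0.31, beside 0.33 for the large subunit. RPS19, a protein of the small subunit head and the gene most often mutated in Diamond-Blackfan anaemia, had the largest rise of all members, at 0.49 ± 0.0601 in the authors' deposited table (adjusted p = 7.88e-15). RPS4X, a protein of the small subunit body, stood at 0.37 ± 0.0594 in that deposited table. RPS6, the substrate of the S6 kinases, stood at 0.35 ± 0.0638, and RPS14, a gene lost in the 5q- syndrome, at 0.30 ± 0.0526 in the authors' deposited table. The smallest rises there were those of RPSA, at 0.16 ± 0.0582 (adjusted p = 0.0123), and of RPS29, at 0.23 ± 0.0666 (adjusted p = 0.00209).

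RPS26 was the one standard ribosomal protein gene listed as lower. Its protein lines the channel by which the mRNA leaves the small subunit and contacts the mRNA upstream of the start codon. The authors' deposited table gave a log2 fold change of -0.22 ± 0.0609, which is 1.16-fold lower, with an adjusted p of 0.00120. Its interval (-0.34 to -0.10) did not meet that of any other listed standard gene, and it would be higher after a shift up by 0.3. TSR2, the escort protein known to carry RPS26 into the ribosome, was lower as well, at -0.32 ± 0.0968 in the authors' deposited table (adjusted p = 0.00275). The fall was not particular to TSR2, since all 9 listed genes of 16 chaperones and importins were lower, with a median of -0.35. The other 7 were not listed. This list joins escorts of ribosomal proteins with general importins, and its largest falls were those of importins. A link between RPS26 and TSR2 was not tested. GENCODE names 30 pseudogenes of RPS26, and no source used here says how reads of such copies were counted. Such copies were not particular to RPS26, since GENCODE names them for 69 members. Members that rose had both more and fewer of them, such as 91 for RPL23A and 1 for RPL27. Whether the number of copies goes with the fold change was not tested.

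Genes of disease or MDM2-binding proteins had medians close to that of all members. The shares to set beside them are 90.9% listed and 89.6% higher for the 77 standard genes, and 45.3% and 21.4% for all tested genes. Diamond-Blackfan anaemia genes were listed in 17 of 20 cases (85.0%), 16 higher (80.0%) and RPS26 lower. Their median was 0.31, although 7 would be lower after a shift down by 0.3. Of 16 genes whose proteins are reported to bind MDM2, 15 were listed (93.8%). RPS26 was lower and the other 14 were higher (87.5% of the 16). The median was 0.30, and 7 would be lower after that shift. Among these, RPL26, at 0.35 ± 0.0632, and RPL23, at 0.28 ± 0.0616 in the authors' deposited table, stood near the members' median.

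The listed paralogs differed. RPL39L, a copy of RPL39 known for its expression in male germ cells, was 2.91-fold lower, at -1.54 ± 0.215 in the authors' deposited table (adjusted p = 7.66e-12), whereas RPL39 was higher. The difference RPL39L minus RPL39 was -1.95 (95% interval -2.40 to -1.50, with the errors of both genes taken as independent). RPS4Y1, the Y-linked copy of RPS4X, was higher at 0.46 ± 0.0634 in that deposited table. RPS4Y1 minus RPS4X was 0.09 (-0.08 to 0.26), so these copies did not differ beyond their error, and reads may be shared between them. RPL22L1, RPL26L1, RPL7L1, RPL36AL, RPL3L, RPL10L and RPS4Y2 were not listed, so no value of theirs is known.

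Of the standard genes, 7 were not listed, with RPL35, RPLP1, RPS15 and RPS18 among them. At the median SE of the standard genes that rose, a log2 fold change of 0.14 was enough to be listed, and at their largest SE one of 0.22. Whether these 7 genes changed less, were measured less precisely or were not tested cannot be read from the table. Of ribosomal proteins with other names, RACK1, a protein of the small subunit head listed as GNB2L1, stood at 0.40 ± 0.0546 in the authors' deposited table. FAU, a fusion with a small subunit protein, was not listed.

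Several members share exons or sequence with other rows of the table. RPL21 and the pseudogene RPL21P28 had log2 fold changes of 0.23 ± 0.0636 and 0.23 ± 0.0635 in the authors' deposited table. RPL17 and the readthrough RPL17-C18orf32 had 0.27 each, RPS10 and RPS10-NUDT3 0.26 and 0.25, and RPL36A and RPL36A-HNRNPH2 0.29 and 0.25 in the authors' deposited table. Rows of such a pair are not separate measurements of one another. RPL32P3 went beyond its parent gene, at 0.73 ± 0.0924 in the authors' deposited table, with RPL32P3 minus RPL32 at 0.43 (0.21 to 0.64). Intervals of differences in this paragraph take the errors of both rows as independent, although the rows may share reads. The pseudogene RPSAP58 stood at 0.41 ± 0.121 beside 0.16 ± 0.0582 for RPSA, the smallest rise, with a difference of 0.25 (-0.02 to 0.51). RPS27L, a known p53 target that the name rule leaves out, was 2.12-fold higher at 1.09 ± 0.0706 in the authors' deposited table, beside 0.35 ± 0.0650 for RPS27, and the difference was 0.74 (0.55 to 0.93).

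Most members share a feature at the start of their transcripts. RefSeq gave a start for 57 of the 72 members. In 43 of these (75.4%) a C was followed by at least 4 pyrimidines on the strand with the sequence of the mRNA. The share was 5.14% of 27305 genes, which were not limited to the genes tested. Where a gene had several starts, one such start sufficed, and the starts used in these cells were not measured. All 43 were higher (median log2 fold change 0.34), and of the other 14 members 13 were higher (median of the 14, 0.30), and 12 of the 43 and 7 of the 14 would be lower after a shift down by 0.3. RPS26, as printed above, begins with a purine at the annotated start, and so does RPS4X, which was higher. Members with runs of 5 to 7 bases had a median of 0.33 (21 genes) and those with runs of 8 to 19 bases one of 0.35 (22 genes). Outside the members, 411 listed genes had such a start, of which 232 (56.4%) were higher, with a median of 0.23. The 4851 listed genes without it were higher in 43.6%, with a median of -0.22. After a shift down by 0.3 these shares would be 41.4% and 33.6%. These are descriptions, and no test was made of them.

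**Figure D3:**
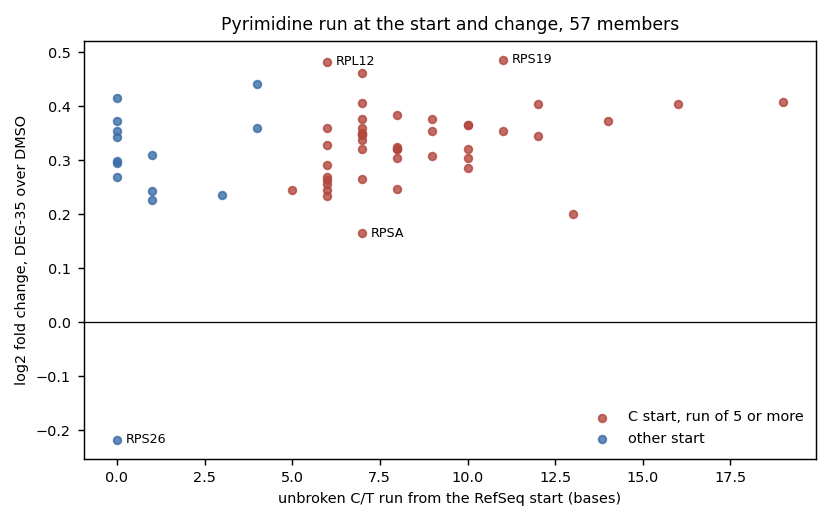
Length in bases of the unbroken C/T run from the RefSeq start (horizontal) against the log2 fold change, DEG-35 over DMSO (vertical), for 57 members. Red points have a C start and a run of 5 or more bases, blue points another start. Of the blue points RPS26 is lower, and the other 13 overlap the red points.

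Short motifs were searched in the 300 bases from 250 before to 50 after each start, on both strands. CCGGAAG, the core bound by ETS factors, was found in 20 of the 57 members with a RefSeq start (35.1%) and in 12.2% of the 27305 genes. AAGATGGC, a YY1 motif, was found in 5 of the 57 (8.77%) and in 3.52% of the 27305. TATAAA was found in 4 of the 57 (7.02%) and 14.0% of the 27305, and the E-box CACGTG in 3 (5.26%) and 8.77%. None of these motifs contains another. Small nucleolar RNA genes lie inside 28 members on the same strand, by GENCODE. All 28 were standard genes that rose; their median log2 fold change was 0.34, beside 0.32 for the other 41, and 11 of the 28 and 14 of the 41 would be lower after a shift down by 0.3.

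Other transcripts reported to carry a TOP tract were mostly higher too. Of 27 such genes 22 were listed. 20 were higher (74.1% of the 27) and 2 lower (7.41%), beside 21.4% and 24.0% of all tested genes. Their median was 0.36, and 8 would be lower after a shift down by 0.3. In the authors' deposited table the elongation factor genes EEF2 (0.57 ± 0.0916) and EEF1A1 (0.44 ± 0.0639) rose, as did the initiation factor subunit EIF3H (0.49 ± 0.0551). Of the 7 noncoding hosts of small nucleolar RNAs on the list 6 were higher and 1 was lower. The median of these hosts was 0.59, and 3 would be lower after a shift down by 0.3. EPB41L4A-AS1 was 1.79-fold higher (0.84 ± 0.0761), GAS5 1.63-fold higher (0.70 ± 0.0625) and ZFAS1 1.52-fold higher (0.60 ± 0.0568) in the authors' deposited table. SNHG5, at 0.23, and SNHG6, at 0.15, stood below the members' median in that deposited table, and the host that was lower was SNHG1, at -0.38 ± 0.0615. VIM, the gene of the filament protein vimentin, was lower at -0.53 ± 0.0533 in the authors' deposited table (adjusted p = 2.38e-22). The list rests on reports of the tract. At the RefSeq start used here, EEF2 and EEF1A1 had the pyrimidine run, and GAS5 and VIM did not.

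Of 22 genes that regulate these mRNAs 13 were listed and 9 were not. Of the 22, 4 were higher (18.2%) and 9 lower (40.9%), beside 21.4% and 24.0% of all tested genes, and 11 would be higher after a shift up by 0.3. The 4 that were higher in the authors' deposited table encode inhibitors of mTORC1 signalling, whereas TSC2, the partner of TSC1, was not listed. In that deposited table SESN1 was 4.21-fold higher (2.07 ± 0.0679), DDIT4 1.79-fold (0.84 ± 0.0597), SESN2 1.60-fold (0.67 ± 0.0875) and TSC1 1.13-fold (0.17 ± 0.0725), of which TSC1 would be lower after a shift down by 0.3. Those lower in the authors' deposited table included the mTORC1 substrates EIF4EBP2, at -0.58 ± 0.0642, and EIF4EBP1, at -0.60 ± 0.0826, which restrain translation, and the S6 kinase gene RPS6KB1, at -0.27 ± 0.0725. The mTORC1 activator RHEB, at -0.30 ± 0.0826, the kinase gene MTOR, at -0.17 ± 0.0598, and LARP1, at -0.24 ± 0.0530, were lower in that deposited table as well, and all of the 9 but EIF4EBP1 and EIF4EBP2 would be higher after a shift up by 0.3. These are mRNA levels, and mTORC1 activity was not measured.

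**Figure D4:**
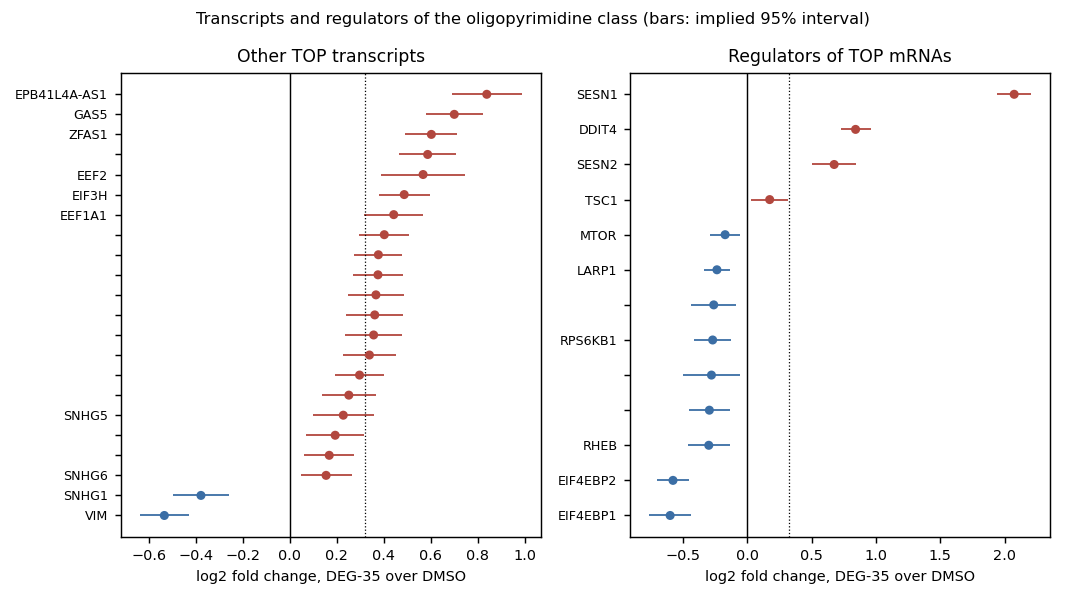
Log2 fold change, DEG-35 over DMSO, with implied 95% intervals for listed genes of other TOP transcripts (left, 20 higher and 2 lower) and of regulators of TOP mRNAs (right, 4 higher and 9 lower), with names at the genes named in the text. The dotted line is the members' median of 0.32. After a shift down by 0.3, 8 of the TOP transcripts would be lower, and after a shift up by 0.3, 11 of the regulators would be higher.

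Genes that bring ribosomal proteins into the nucleus or guard them were lower where listed. Of 16 chaperones and importins 9 were listed, all of them lower (56.2% of the 16, beside 24.0% of all tested genes), with a median of -0.35, and 3 would be higher after a shift up by 0.3. The importins IPO9, at -0.65 ± 0.0619, IPO5, at -0.46 ± 0.0619, TNPO1, at -0.51 ± 0.0675, and KPNB1, at -0.45 ± 0.0632, led in the authors' deposited table, and importins carry many other proteins. GRWD1, whose yeast counterpart escorts the RPL3 protein, stood at -0.35 ± 0.0857 in the authors' deposited table, which has RPL3 itself at 0.44. Of 24 genes of ribosome quality control 12 were listed, 5 higher (20.8%) and 7 lower (29.2%), near the 21.4% and 24.0% of all tested genes. After a shift up by 0.3, 9 would be higher, and after a shift down by 0.3, 10 would be lower. RACK1, counted above among the ribosomal proteins with other names, is also among the 5 that were higher. ASCC3, a helicase that splits collided ribosomes, was higher at 0.60 ± 0.0674, and the deubiquitinase gene OTUD3 was lower at -0.58 ± 0.0931 in the authors' deposited table. HBS1L, a partner of the ribosome rescue factor PELO, was lower at -0.32 ± 0.0736 in that deposited table.

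The list of the 5S particle and MDM2 had 8 listed genes of 13, 4 higher and 4 lower (30.8% each, beside 21.4% and 24.0% of all tested genes). MDM2 was 3.33-fold higher (1.74 ± 0.0631) and its relative MDM4 1.20-fold higher (0.26 ± 0.0683) in the authors' deposited table, where MDM4 would be lower after a shift down by 0.3. The assembly factors RRS1, at -0.34 ± 0.0705, and RPF2, at -0.29 ± 0.0730, which in yeast load the 5S particle onto the large subunit, were lower in the authors' deposited table, and RPF2 would be higher after a shift up by 0.3. The splicing factor gene SRSF1 stood at -0.64 ± 0.0569 and nucleolin, NCL, at -0.33 ± 0.0580 in the authors' deposited table.

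Ribosomal proteins of the mitochondria gave other values. Of 77 genes with MRPL or MRPS names 33 (42.9%) were listed. Among the 77, 6 were higher (7.79%) and 27 lower (35.1%), beside 21.4% of all tested genes that were higher and 24.0% that were lower. The median of the 33 was -0.27, and 19 of them would be higher after a shift up by 0.3. Of 66 genes with EIF or EEF names, the EIF2AK kinase genes left out, 39 were listed, 21 higher (31.8%) and 18 lower (27.3%). Such names also cover genes that are not translation factors, such as the inhibitors EIF4EBP1 and EIF4EBP2, which were lower. Some of the 39, such as EEF2, EEF1A1 and EIF3H, were also counted above among the other TOP transcripts. The median of the 39 was 0.19, and 27 would be lower after a shift down by 0.3. The difference between these groups and the cytosolic ribosomal proteins was not tested.

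**Figure D5:**
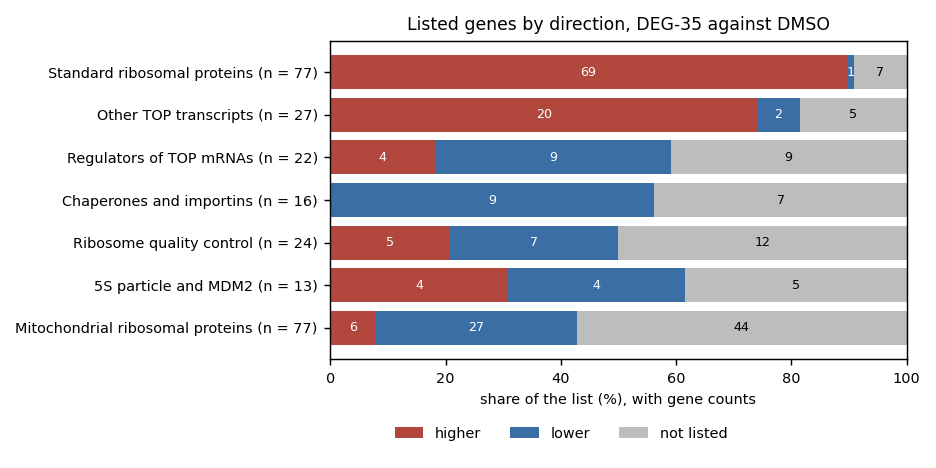
Share of each gene list (horizontal, in %) that was listed as higher (red), lower (blue) or not listed (grey) with DEG-35 against DMSO, with gene counts in the bars. Of the 77 standard ribosomal protein genes 69 were higher, and of the 77 mitochondrial ones 6. After a shift down by 0.3, 26 of the 70 listed standard genes would be lower, and after a shift up by 0.3, 19 of the 33 listed mitochondrial genes would be higher.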

How the data were processed

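RNA was taken from MOLM-13 cells after 24 h with 50 nM DEG-35 or with DMSO, and SMARTer mRNA libraries were made, 3 per group, per the labels' protocols. The submitters' processing notes name STAR, featureCounts, DESeq2 and hg19, without versions, options or order; no source used here gives strand or multiple-mapping settings. The authors deposited 1 table of log2 fold changes and raw and adjusted p-values for genes with an adjusted p-value below 0.05, and these deposited values were used unchanged.

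For 2789 genes with a p-value above 1e-04, adjusted p times rank over p lay within 0.1% of 15064, the number of genes tested. The implied SE is the absolute log2 fold change over the normal quantile of the two-sided p-value, assuming a Wald test. Older symbols were matched through RefSeq names (GRCh38.p14), and GENCODE release 29 (GRCh38) gave overlaps, copies and small nucleolar RNA genes. Promoter sequences are RefSeq's.

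Members and gene lists were chosen with earlier results of these data known, so no list was tested: lists are described by counts and medians. Genes named are the 5 largest and 5 smallest fold changes of standard members, members that fell, paralogs, unlisted standard genes, members of the functional groups and, for each related list, up to 4 genes of smallest adjusted p and the first gene against the majority. RPL7A, RPL26, RPL23, RPS4X, RPS6, RPS14, TSC1, RHEB, MTOR, LARP1, TSC2, SNHG5, SNHG6, RPS6KB1, EIF4EBP1, EEF1A1, EEF2, EIF3H, TSR2, GRWD1, RPF2, RRS1, MDM4 and the pseudogene rows were named for their roles or values after these had been seen. Some genes that these rules take are not reported here. Alternatives were stricter thresholds, a limit on the SE, standard genes only, a weighted mean, shifts of all log2 fold changes of listed genes by 0.3 either way and, added after the data were seen, leaving out members that share exons or sequence. Tables were computed in Python 3.11.15 with NumPy 2.4.6, pandas 2.3.3 and SciPy 1.17.1, and drawn with Matplotlib 3.10.9.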

Additional observations from a re-analysis of the deposited data

How the results depend on the processing

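No paired analysis was possible because the table holds 1 comparison and no value per library, and for the same reason no library could be left out and no depth or other scaling factor examined. A shift of all log2 fold changes stands in for other scaling, and it moves no gene into or out of the table. Shifted down by 0.3, 45 members were higher and 27 lower, with a median of 0.021. Shifted up by 0.3, 71 were higher and 1 was lower, with a median of 0.62. Stricter settings left fewer members by construction: 46 higher and 1 lower with Bonferroni adjustment over 15064 tests, and 45 higher and 1 lower when log2 fold changes under 0.3 in size were dropped. The lower count was also 1 with standard genes only, which leaves out RPL39L, and 1 with an implied SE of at most 0.2, which does so too. At an adjusted p below 0.01, 66 members were higher and 2 lower. The median otherwise stayed between 0.32 and 0.33, including 0.32 as a weighted mean and without members that share exons or sequence. For the related lists, the shift down gave 1 higher and 1 lower of the ribosomal proteins under other names, 8 lower of the other TOP transcripts and 2 higher of ribosome quality control. The shift up gave 11 higher and 2 lower of the regulators, 3 higher of the chaperones and importins, and 9 higher and 3 lower of ribosome quality control, where 4 were lower at an adjusted p below 0.01. Of single members, 4 did not pass at an adjusted p below 0.01 and 25 did not pass with Bonferroni adjustment, RPS26 among the 25.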
